A study of Mus musculus with 50 samples.

Results

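Of the 35 genes described here, 34 encode subunits or assembly chaperones of the proteasome, the large protease that degrades proteins marked with ubiquitin. They were chosen by name, as every gene whose symbol starts with Psma, Psmb, Psmc or Psmd followed by a digit, leaving out named pseudogenes and the immunoproteasome genes Psmb8, Psmb9 and Psmb10, and by level, as an FPKM of at least 1 in 5 or more of 50 libraries. FPKM is the number of fragments per kilobase of transcript, scaled to the number of mapped fragments. They were 35 of 11628 genes at that level and of 35717 genes in the table. The rule itself used no difference between groups, but it was chosen with earlier results of these data known.

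The libraries hold left ventricular RNA of 40 week old C57BL/6J mice. Transgenic mice (Tg) overexpress the RNA-binding protein LARP6 in heart muscle cells, and littermates without the transgene (WT) served as controls. Saline, which was sterile, or angiotensin II (Ang II), a hormone of blood pressure control, was infused, the latter at 1000 ng/kg/min, and hearts were collected after 21 days. Saline was given to 11 WT and 12 Tg mice and Ang II to 14 WT and 13 Tg mice, with females and males in each group. The promoter that drives the transgene, and the number of founder lines, are not given in the sources used here.

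The proteasome is a barrel with a cap. The barrel, called the core particle, has outer alpha rings that gate the entry and inner beta rings that cut proteins. The cap, called the regulatory particle, has a base, whose ring of ATPases unfolds the substrate, and a lid, whose enzyme Psmd14 removes the ubiquitin chain. Heart muscle depends on this system to renew its contractile proteins, and proteasome genes are known to rise together when the factor NFE2L1 is activated.

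By role, 7 of the genes encode the alpha ring (Psma1 to Psma7), 7 the constitutive beta ring (Psmb1 to Psmb7), 6 the ATPase ring (Psmc1 to Psmc6), 3 the rest of the base (Psmd1, Psmd2 and Psmd4) and 8 the lid (Psmd3, Psmd6, Psmd7, Psmd8, Psmd11, Psmd12, Psmd13 and Psmd14). A further 3 (Psmd5, Psmd9 and Psmd10) are chaperones that help the base to assemble. Psmc3ip matched the spelling but encodes a meiotic recombination factor, not a subunit, so means over the complex use the other 34 genes. Psmc3ip lay just inside the level, with an FPKM of 1 or more in 6 libraries and a mean of 0.779. The other 34 reached an FPKM of 1 in all 50 libraries, the lowest being Psmd9 at a mean of 1.48. Of 37 genes with a matching name, Psma8, a testis form of an alpha subunit, and Psmb11, the thymus form of a beta subunit, failed, with highest FPKM values of 0.485 and 0.0119.

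Promoters were examined because the genes of the complex are known to share regulators. The RefSeq promoter table (assembly GRCm38.p6) held 29 of the 35 genes, with 31 start sites. The 250 bases before each start were searched on both strands for TGACNNNGC, the core of the antioxidant response element that NFE2L1 binds, its looser form TGANNNNGC, which contains the first, CCAAT (the NF-Y box), CCGGAAG (an ETS factor site) and GCATGCG (from the site of nuclear respiratory factor 1). The following 4 promoters are shown 5′ to 3′ on the strand of the gene, with matches to any of these 5 motifs in capitals. Psma5 (chr3:108256676-108256925, plus strand), Psmd14 (chr2:61711444-61711693, plus strand) and Psmd11 (chr11:80428365-80428614, plus strand) belong to genes that were higher in transgenic hearts, and Psmb6 (chr11:70525107-70525356, plus strand), a catalytic subunit, was not called.
Psma5: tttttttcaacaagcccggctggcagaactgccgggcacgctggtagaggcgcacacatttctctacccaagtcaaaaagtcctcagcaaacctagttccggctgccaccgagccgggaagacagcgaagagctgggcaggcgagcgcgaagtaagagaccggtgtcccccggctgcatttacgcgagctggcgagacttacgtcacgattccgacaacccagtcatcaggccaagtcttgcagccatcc
Psmd14: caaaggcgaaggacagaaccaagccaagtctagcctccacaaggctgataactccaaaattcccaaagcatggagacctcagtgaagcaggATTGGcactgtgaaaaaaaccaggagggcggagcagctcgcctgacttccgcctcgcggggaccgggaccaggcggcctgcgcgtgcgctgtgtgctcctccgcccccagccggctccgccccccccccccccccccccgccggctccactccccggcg
Psmd11: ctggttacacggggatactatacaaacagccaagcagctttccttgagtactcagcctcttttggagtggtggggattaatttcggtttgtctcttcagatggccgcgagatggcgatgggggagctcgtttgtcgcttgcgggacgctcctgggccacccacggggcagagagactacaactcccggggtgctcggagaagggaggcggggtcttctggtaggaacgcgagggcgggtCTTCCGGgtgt
Psmb6: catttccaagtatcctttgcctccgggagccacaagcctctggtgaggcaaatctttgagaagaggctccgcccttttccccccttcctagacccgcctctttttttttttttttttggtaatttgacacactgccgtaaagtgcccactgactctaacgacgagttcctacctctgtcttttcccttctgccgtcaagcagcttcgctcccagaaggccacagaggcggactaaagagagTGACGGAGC
Psma5 held none of the 5 motifs, Psmd14 a CCAAT box on the minus strand, Psmd11 an ETS site on the minus strand, and Psmb6 the core of the antioxidant response element directly before its start. CCGGAAG was in 35.5% of the 31 windows, against 13.5% of the windows of all genes tested and 6.91% of all windows in the table. TGACNNNGC was in 16.1% against 11.7% of the windows of genes tested and 10.2% of all, in the genes Psmb5, Psmb6, Psmc6, Psmd9 and Psmd12. The looser TGANNNNGC was in 41.9% against 36.6% and 35.2%, CCAAT in 38.7% against 34.7% and 33.9%, and GCATGCG in 6.45% against 5.36% and 3.02%. Of the 12 genes with a promoter that were called higher in transgenic hearts under saline, 1 held TGACNNNGC, 2 TGANNNNGC, 6 CCAAT, 5 CCGGAAG and 0 GCATGCG, and of the other 17 genes, 4, 10, 6, 5 and 2 did. A match describes the letters only.

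Total counts per library ranged from 53877439 to 91579342, and the 35 genes had mean counts from 108 (Psmc3ip) to 11466 (Psmd2), so counting error alone gave coefficients of variation of 9.61% and 0.934%. Larp6 checked the labels: its scaled FPKM ran from 5.61 to 63.7 in WT saline, from 444 to 1631 in Tg saline and from 588 to 1180 in Tg Ang II. In WT Ang II the median was 37.8, but library 329, labelled WT, held 1004. Its column name in the table also carries the letters of the transgene, and that of library 847, labelled Tg Ang II, carries those of WT, although its Larp6 lay in the transgenic range. Both were kept under their labels, and calls lost without them are named. Library 965, a Tg saline male, also stood apart, with the lowest scaling factor of the 50 (0.776) and the fewest genes at an FPKM of 1 (9832). The share of counts from mitochondrial genes had a median of 36.02% in WT saline, 33.6% in WT Ang II, 32.1% in Tg saline and 31.4% in Tg Ang II, and its part in the results was not tested.

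Levels are given as scaled FPKM, which is the deposited FPKM after the libraries were brought to one scale by median of ratios. In WT saline hearts Psmc3, an ATPase, was the highest at 48.9 ± 2.86 (SD, n = 11), followed by the beta subunit Psmb2 at 44.4 ± 2.88, the alpha subunit Psma6 at 40.3 ± 3.13, the ATPase Psmc5 at 38.5 ± 2.35 and the catalytic subunit Psmb5 at 37.3 ± 4.10. The lowest subunits were Psma3 at 6.86 ± 0.41 and the lid genes Psmd11 at 7.86 ± 0.54 and Psmd14 at 9.67 ± 0.83. The assembly chaperones were lower still, with Psmd10 at 3.82 ± 0.40, Psmd5 at 1.92 ± 0.10 and Psmd9 at 1.43 ± 0.11.

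Subunits that occupy one ring in equal number had unequal scaled FPKM. These values rest on the transcript lengths used for FPKM, and the counts themselves need not follow the same order. Mean counts over the 50 libraries turned the order of Psmb2 and Psmb1, at 3812 and 4481. They kept that of Psma6 and Psma3, at 4109 and 2203, and of Psmc3 and Psmc2, at 9640 and 4555. The order of Psmd7 and Psmd11, at 6274 and 4245, was also kept. In scaled FPKM the highest and lowest gene differed 5.88-fold in the alpha ring (Psma6 and Psma3) and 4.18-fold in the ATPase ring (Psmc3 and Psmc2). They differed 4.10-fold in the lid (Psmd7 and Psmd11) and 3.70-fold in the beta ring (Psmb2 and Psmb1). Of 34 neighbouring pairs in the order, 29 had overlapping ranges over the 11 libraries. The breaks were between Psmc2 and Psmd14, between Psma3 and Psmd10, and on each step below that.

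**Figure D1:**
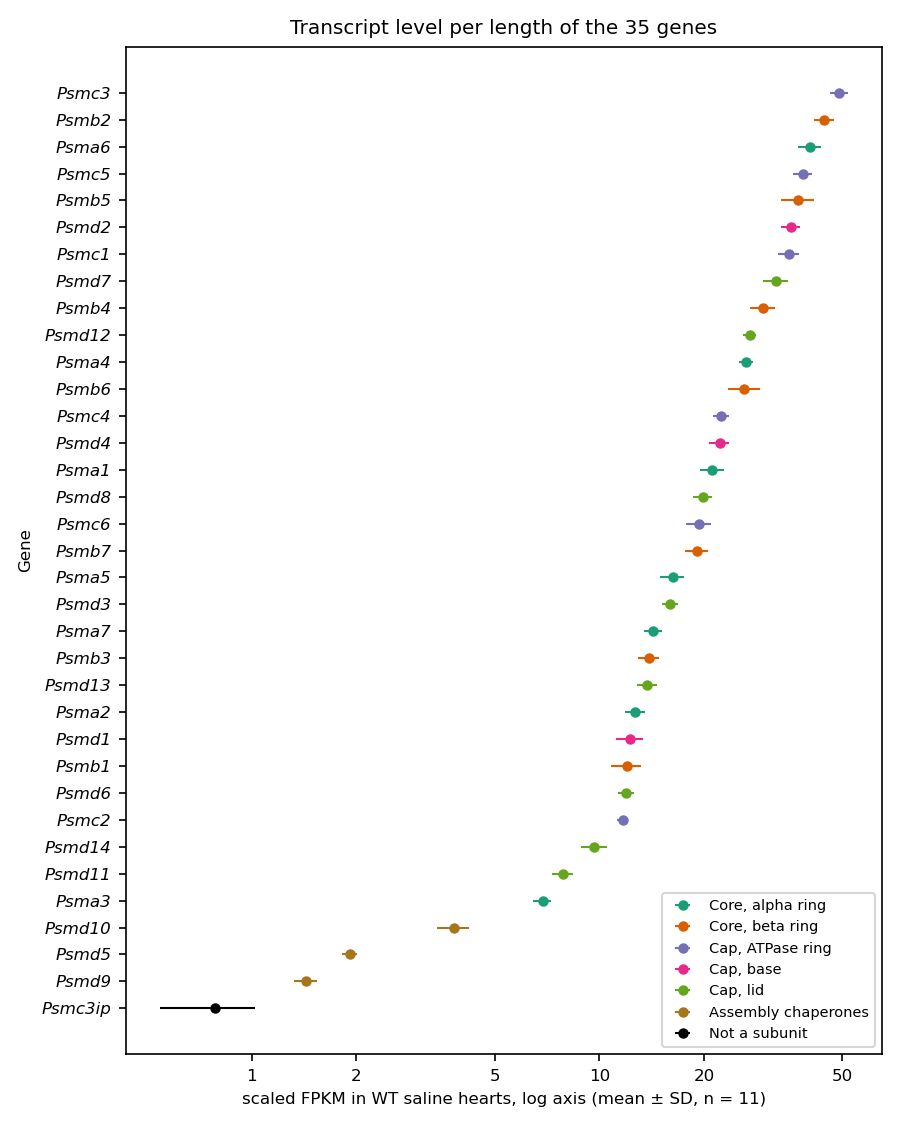
Scaled FPKM of the 35 genes in WT saline hearts, on a log axis, as mean ± SD over 11 libraries, coloured by role. Psmc3 stands at 48.9, the subunits end at Psma3 with 6.86, and the assembly chaperones lie between 1.43 and 3.82.

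The first comparison asked what the transgene alone changes, in hearts given saline. In transgenic hearts 6 of 8 lid genes and 4 of 7 genes of the alpha ring were higher, and 0 of 7 genes of the beta ring, which does the cutting. The difference between these groups of genes was not tested. The largest log2 fold change in the beta ring, 0.12, was not called, while Psmd2 in the base was called at 0.10. The within-group SD on the log2 scale ran from 0.10 to 0.16 in the beta ring and from 0.07 to 0.12 in the lid. A gene that was not called can thus have changed as much as one that was. Of the 35 genes, 14 rose (40%), against 20.4% of all genes tested, and 1 fell (2.86%), against 20.2%, by the quasi-likelihood test of edgeR at a Benjamini-Hochberg adjusted p under 0.05 over all genes tested. The median log2 fold change of the 35 genes was 0.10, and that of all genes tested was 0.00. The changes were small, and the largest, in Psmd8 and Psma5, came to 25.8% and 25.7%. In bulk tissue, fewer cells of a type and less RNA per cell cannot be told apart.

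In the lid, 6 of 8 genes rose (Psmd3, Psmd7, Psmd8, Psmd11, Psmd13 and Psmd14), with a median log2 fold change of 0.20. Psmd8, a structural lid subunit, ran from 17.5 to 21.8 scaled FPKM with a median of 19.8 in WT saline, and from 21.8 to 32.5 with a median of 24.8 in Tg saline. In 11 of the 12 transgenic libraries it lay above the highest WT library, and the log2 fold change was 0.33 ± 0.05 (SE, adjusted p = 1.7e-06). Psmd14, the deubiquitinase of the lid, went from a median of 9.85 (7.61 to 10.7) to one of 11.3 (10.5 to 13.1), a log2 fold change of 0.25 ± 0.05 (adjusted p = 9.9e-05), and 10 of 12 transgenic libraries lay above the highest WT library.

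Psmd13, which helps to hold the lid together, had a median of 13.6 (12.5 to 15.8) in WT saline and of 15.9 (14.8 to 18.1) in Tg saline, a log2 fold change of 0.23 ± 0.04 (adjusted p = 2.6e-05). Psmd7, the partner of Psmd14 in the lid, went from a median of 32.1 (28.9 to 37.2) to 36.7 (33.8 to 41.9), a log2 fold change of 0.22 ± 0.05 (adjusted p = 2.3e-04). For both genes 6 of 12 transgenic libraries lay above every WT library, and all 12 above the WT median. Psmd11, a scaffold subunit of the lid, rose by 0.18 ± 0.05 (adjusted p = 0.0019) and Psmd3 by 0.10 ± 0.04 (adjusted p = 0.033), while Psmd6 and Psmd12 had log2 fold changes of 0.06 and -0.05 that did not pass.

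In the alpha ring, 4 of 7 genes rose (Psma3, Psma5, Psma6 and Psma7). Psma5 went from 13.7 to 17.6 with a median of 16.6 in WT saline to 17.7 to 24.4 with a median of 19.8 in Tg saline, a log2 fold change of 0.33 ± 0.05 (adjusted p = 1.8e-06). The gene lies at chr3:108256926-108279974 on the plus strand (GRCm38). All 12 transgenic libraries lay above all 11 WT libraries. It was the 1 gene of the 35 that was higher without overlap, against 2.65% of all genes tested, and 0 were lower without overlap, against 1.43%. Some Psma5 reads could belong to its pseudogene Psma5-ps, which was counted at a mean FPKM of 1.53.

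Psma7 had a median of 14.4 (13.0 to 15.7) in WT saline and of 16.2 (15.2 to 18.9) in Tg saline, a log2 fold change of 0.20 ± 0.05 (adjusted p = 6.9e-04), with 9 of 12 transgenic libraries above the WT range. Psma6 and Psma3 rose by 0.16 ± 0.05 and 0.15 ± 0.05 (adjusted p = 0.015 and 0.0095). All 7 alpha genes had positive log2 fold changes, the smallest being 0.06 in Psma1 and Psma4.

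In the beta ring 0 of 7 genes rose, while with libraries scaled by size alone, which moved the median of all genes by 0.14, Psmb1, Psmb3, Psmb5 and Psmb7 were called higher. The 3 catalytic subunits were Psmb5, with chymotrypsin-like activity, Psmb6, with caspase-like activity, and Psmb7, with trypsin-like activity. Psmb5 ran from 30.8 to 45.1 with a median of 36.5 in WT saline and from 32.4 to 56.8 with a median of 36.9 in Tg saline, and its log2 fold change was 0.06 ± 0.07, with a 95% interval of -0.08 to 0.19 (adjusted p = 0.53). Psmb6 had medians of 26.6 (21.9 to 31.0) and 25.8 (20.1 to 38.2), with a log2 fold change of 0.02 and an interval of -0.10 to 0.14. Psmb7 had medians of 18.6 (17.1 to 22.3) and 18.3 (17.3 to 24.4), with a log2 fold change of 0.02 and an interval of -0.07 to 0.10.

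For all 3 the ranges overlapped nearly in full, and library 965 was the highest. Without it the log2 fold change of Psmb6 was -0.03 and that of Psmb7 -0.01. Psmb2, a structural beta subunit, was lower, with medians of 44.6 (40.2 to 50.1) in WT saline and 40.8 (35.5 to 45.6) in Tg saline. Its log2 fold change was -0.13 ± 0.04 (adjusted p = 0.011). With libraries scaled by size alone it was 0.01 (adjusted p = 0.93), which is -0.13 relative to the median of all genes under that scaling.

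In the base, the ATPases Psmc1 and Psmc6 rose, by 0.16 ± 0.06 and 0.15 ± 0.05 (adjusted p = 0.018 and 0.0058), and the other 4 ATPases did not pass. Psmc1 had medians of 34.7 (32.0 to 40.5) in WT saline and 37.6 (34.9 to 57.0) in Tg saline, where 57.0 was library 965. Without that library Psmc1 and Psma6 were not called and the count of higher genes was 12. Psmd2, a scaffold of the base, rose by 0.10 ± 0.04 (adjusted p = 0.031). Of the chaperones Psmd10, also called gankyrin, rose by 0.27 ± 0.07 (adjusted p = 0.0021), from a median of 3.90 (3.00 to 4.30) to one of 4.63 (3.74 to 5.49), and 8 of 12 transgenic libraries lay above the WT range.

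**Figure D2:**
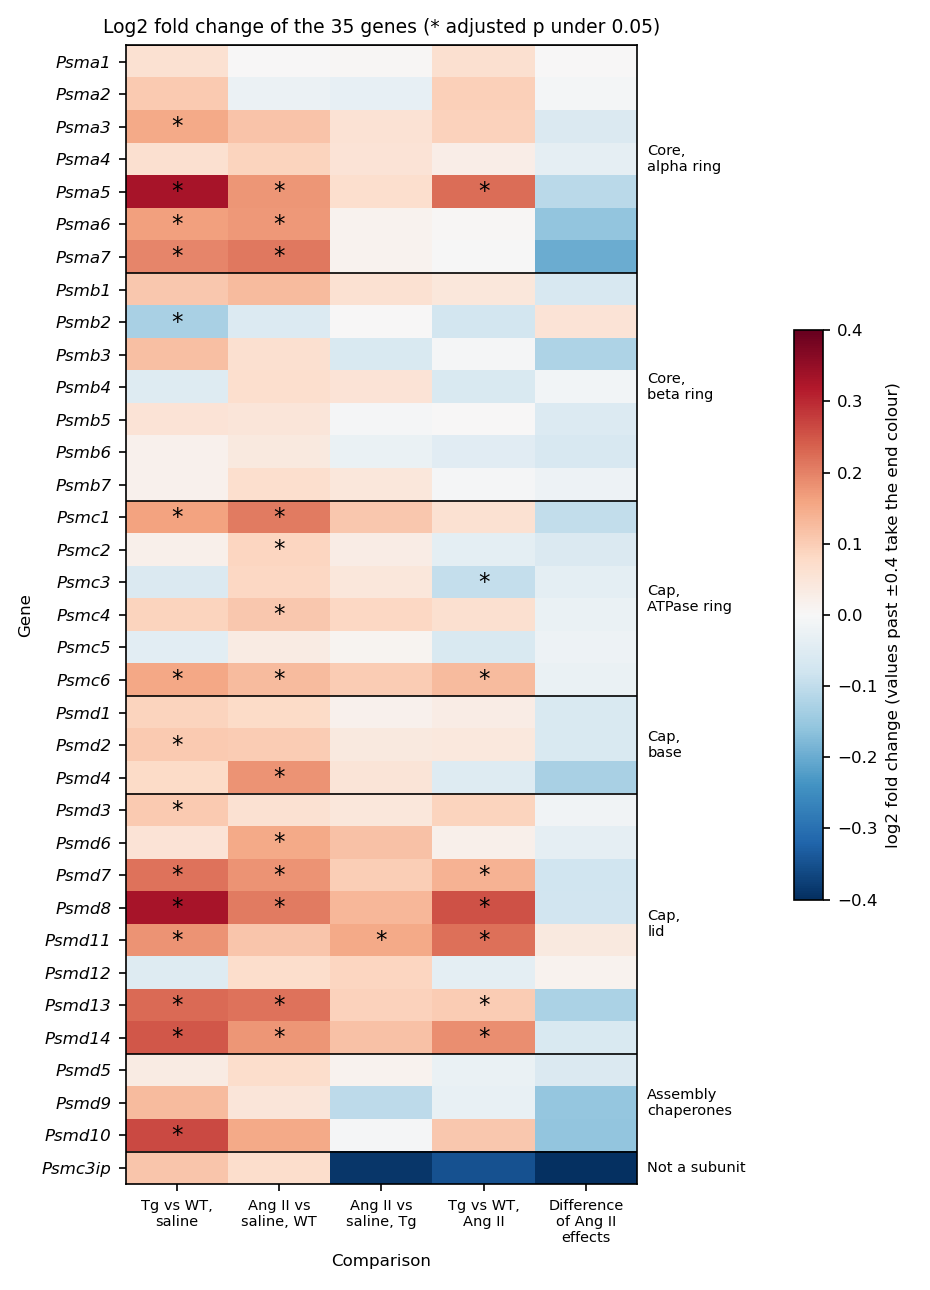
Log2 fold change of each of the 35 genes (rows, grouped by role) in 5 comparisons (columns), with an asterisk where the adjusted p was under 0.05. The lid holds 6 asterisks under saline and the beta ring 1, for the lower Psmb2, and the last column, the difference between the Ang II effects, holds 0.

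The count depended on the scaling. With libraries scaled by size alone, the median gene tested moved by 0.14 on the log2 scale and 29 of the 35 genes were called higher and 0 lower. Of the 11628 genes tested 4868 were then higher and 919 lower. Among all genes called 84.1% were higher, against 50.3% with the median-of-ratios scaling. Relative to the median shifted by size scaling, Psmd8 and Psma5 stood at 0.33. On log2(FPKM + 1) limma-trend called 25 higher and 0 lower, where 5004 of the 11628 were called in either direction. The median of all genes tested moved by 0.08 there. The genes Psma5, Psma7, Psmc6, Psmd7, Psmd8, Psmd10, Psmd11, Psmd13 and Psmd14 passed in each of the 9 alternatives other than leaving out single libraries. With the block for clusters of library numbers Psma3, Psma6, Psmc1, Psmd2 and Psmd3 were not called, which left 2 of 7 alpha genes and 5 of 8 lid genes, and Psmd2 and Psmd3 were also not called without the FPKM filter.

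The same test in each sex alone called 9 genes higher and 1 lower in females, against 13.2% and 13.6% of all genes tested, and 10 higher and 0 lower in males, against 12% and 9.96%. The difference between the sexes in the transgene's effect was itself tested and called 0 of the 35 genes and 0 of 11628 in edgeR, 0 of the 35 had an unadjusted p under 0.05, and DESeq2 called 0 of the 35. Averaged over the 4 groups, 3 of the 35 genes were lower in females, against 2.56% of all genes tested, and 0 higher, against 1.86%. They were Psma5 at a log2 difference of -0.13 ± 0.04, Psmd8 at -0.13 ± 0.04 and Psmb7 at -0.12 ± 0.03 (adjusted p = 0.020, 0.026 and 0.013). Psmd8 was not called without libraries 329 and 847 or with a block for clusters of library numbers. With size scaling alone, and with limma-trend, 0 of the 35 genes were lower in females. With size scaling 112 of the 11628 genes tested were lower in females, and of all genes called 90.8% were higher, against 42%.

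**Figure D3:**
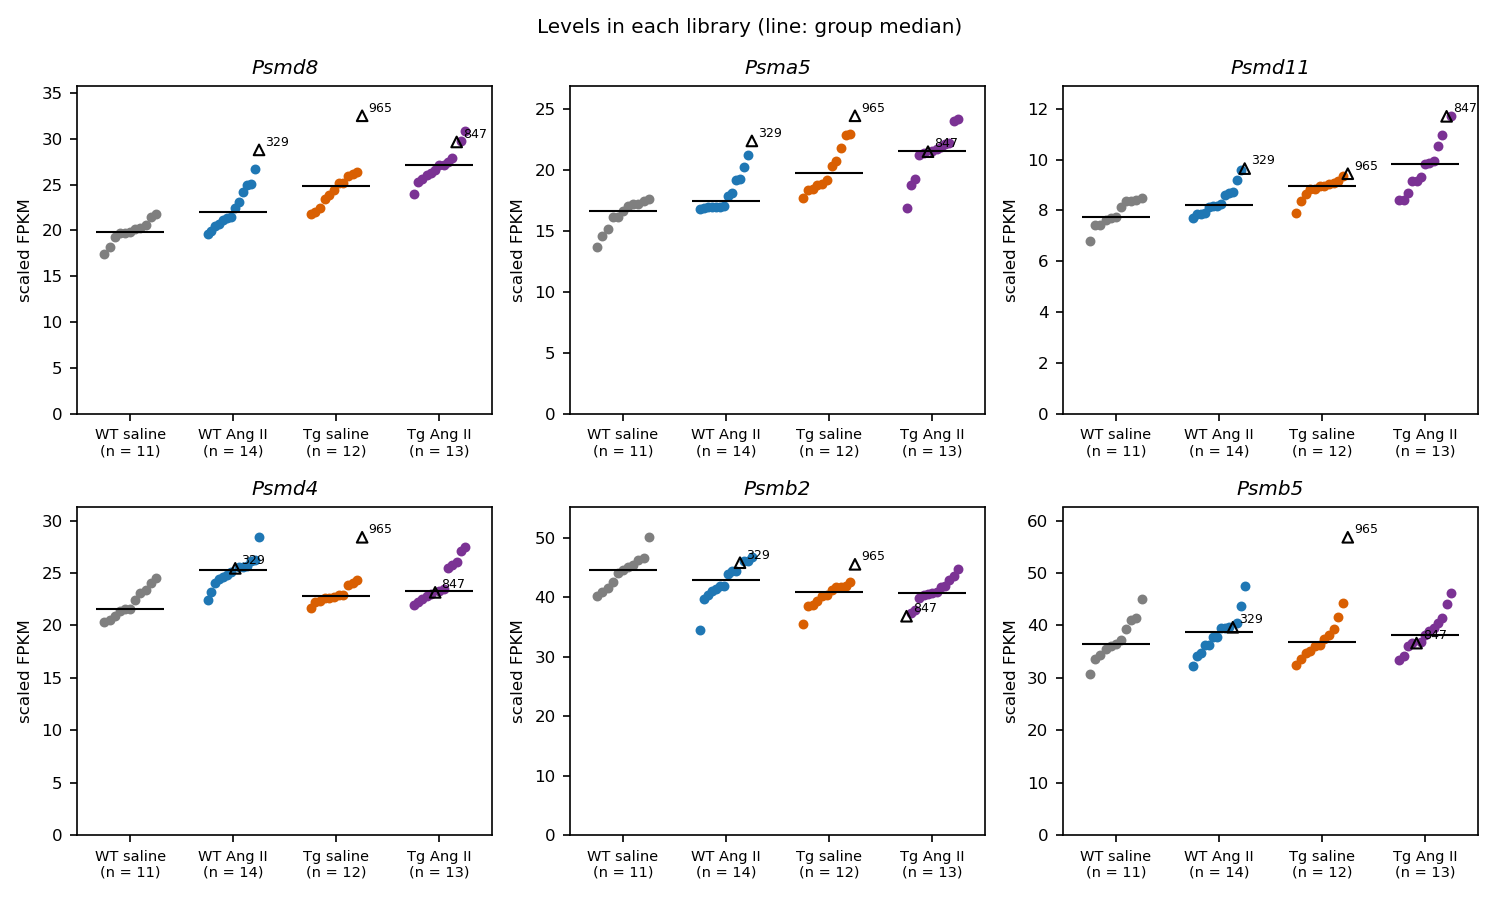
Scaled FPKM of 6 genes in every library of the 4 groups, ordered by value within a group, with a line at the group median and open triangles for libraries 329, 847 and 965. For Psma5 the Tg saline libraries (17.7 to 24.4) lie above the WT saline libraries (13.7 to 17.6), while for Psmb5 the 4 groups overlap.

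The RNA of cell type markers moved with the transgene, and whether the cell make-up of the tissue changed was not tested. Under saline 8 of 9 macrophage markers, 9 of 9 markers of resident fibroblasts and 6 of 6 of myofibroblasts rose, while 8 of 8 endothelial and 6 of 8 cardiomyocyte markers fell. Among all genes tested 20.4% rose and 20.2% fell. The summed scaled FPKM of the macrophage list ran from 99.6 to 129 in WT saline and from 152 to 425 in Tg saline, and that of the resident fibroblast list from 382 to 502 and from 484 to 735. The cardiomyocyte list ran from 15048 to 18312 and from 13430 to 15871, and the myofibroblast list from 8.55 to 14.5 and from 24.1 to 56.2. The endothelial list ran from 136 to 208 and from 97.1 to 135. Of the mural markers 1 of 7 tested rose and 5 fell, and the summed list ran from 154 to 200.3 and from 107 to 139. The part of these shifts in the proteasome values was not tested. The lymphocyte, atrial, and Schwann and adipocyte lists were near 0 in every group (summed scaled FPKM of at most 2.01), and the defining atrial genes Myl7 and Sln had a mean FPKM under 0.1. The 5 erythroid genes varied widely in every group, from 96.2 to 604 in WT saline and from 169 to 741 in Tg saline, and 0 were called.

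The second comparison asked what Ang II changes in hearts without the transgene. It shares the WT saline libraries with the first, so the values stand side by side and their likeness is not a result. Of the 35 genes, 13 rose (37.1%), against 9.71% of all genes tested, and 0 fell, against 8.87%. The median log2 fold change was 0.09. By role these were 5 of 8 lid genes, 4 of 6 ATPases, 3 of 7 alpha genes (Psma5, Psma6 and Psma7), 1 of 3 other base genes and 0 of 7 beta genes. The largest log2 fold change in the beta ring, 0.13, was not called, while the median of the ATPases was 0.10. With size scaling alone, and with the block for clusters of library numbers, the beta gene Psmb1 was called higher.

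Psmd13 had a median of 13.6 (12.5 to 15.8) in WT saline and of 15.5 (14.3 to 19.3) in WT Ang II, a log2 fold change of 0.22 ± 0.04 (adjusted p = 1.5e-04), and all 14 Ang II libraries lay above the saline median. Psma7 went from a median of 14.4 to one of 16.2 (14.3 to 20.9), at 0.21 ± 0.05 (adjusted p = 7.8e-04). Psmc1 went from a median of 34.7 to one of 39.7 (35.8 to 45.8), at 0.21 ± 0.05 (adjusted p = 0.0045). The ranges overlapped in each of these, with 5 to 10 of the 14 Ang II libraries above the saline range. Of the 35 genes 0 were higher or lower without any overlap, against 0.189% and 0.043% of all genes tested.

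Psmd4, the ubiquitin receptor of the base, had a median of 21.6 (20.3 to 24.6) in WT saline and of 25.3 (22.4 to 28.4) in WT Ang II, a log2 fold change of 0.18 ± 0.04 (adjusted p = 0.0019), and 10 of 14 Ang II libraries lay above the saline range. The transgene gave the same gene a log2 fold change of 0.08 ± 0.04 under saline (adjusted p = 0.16). Psmd8 rose by 0.21 ± 0.05, Psmd7, Psmd14 and Psma5 by 0.18 ± 0.05 each, Psma6 by 0.17 ± 0.05 and Psmd6 by 0.15 ± 0.04, with adjusted p between 0.0028 and 0.017. Psmd11 at 0.11 and Psmd12 at 0.07 did not pass.

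The ATPases Psmc2, Psmc4 and Psmc6 had the smallest changes that passed, 0.09 ± 0.03, 0.11 ± 0.04 and 0.13 ± 0.04 (adjusted p = 0.034, 0.032 and 0.036). They were lost together without library 329, whose Larp6 goes against its label, and without libraries 157, 328, 779 or 846, which left 10 genes without 329. These ATPases were also not called without the FPKM filter. Psmc4 was in addition lost with the block for clusters of library numbers, and Psmc6 with sex left out of the model. The catalytic genes Psmb5, Psmb6 and Psmb7 had log2 fold changes of 0.05, 0.04 and 0.07, with intervals of -0.08 to 0.18, -0.08 to 0.15 and -0.02 to 0.15. With size scaling alone the count was 23, where 1987 of the 11628 genes tested were higher. With limma-trend it was 22, where 2192 of the 11628 were called in either direction on log2(FPKM + 1). Among all genes called 80.6% were higher with size scaling, against 52.3%. Of the marker lists, 6 of 6 myofibroblast genes and 1 of 9 macrophage genes rose, 2 of 9 resident fibroblast genes rose and 1 fell, 1 of 8 endothelial and 1 of 7 mural genes fell, 0 of 8 cardiomyocyte genes were called, and their part was not tested.

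The third comparison gave Ang II to transgenic hearts, and 1 of the 35 genes rose (2.86%), against 4.88% of all genes tested, and 0 fell, against 4.04%. That gene was Psmd11, with a median of 8.96 (7.92 to 9.45) in Tg saline and of 9.83 (8.39 to 11.7) in Tg Ang II, and a log2 fold change of 0.15 ± 0.04 (adjusted p = 0.027). In 7 of the 13 Ang II libraries it lay above the saline range, but it was not called without library 237, 715, 783 or 847, with the block for library numbers (adjusted p = 0.11) or without the FPKM filter (adjusted p = 0.061). Without library 965, which was high in Tg saline, 4 genes were called higher. The 8 lid genes all had positive log2 fold changes, from 0.05 to 0.15, and 7 had an unadjusted p under 0.05, where 23.4% of all genes tested did. Of the marker lists 5 of 6 myofibroblast genes rose, 1 of 9 resident fibroblast genes rose and 4 fell, 1 of 8 cardiomyocyte genes rose, 1 of 7 mural genes fell and 0 macrophage or endothelial genes were called, and their part was not tested. Without overlap 0 of the 35 were higher or lower, against 0.0344% of all genes tested in each direction.

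The effects of Ang II in the 2 genotypes were compared directly. The interaction called 0 of the 35 genes higher or lower, against 0.0086% and 0.0344% of all genes tested, and 5 of the 35 had an unadjusted p under 0.05 in edgeR, where 9.77% of all genes tested did. DESeq2 also called 0. The 5 genes were Psma7 at -0.20 ± 0.06, Psma6 at -0.16 ± 0.07, Psmd4 and Psmd13 at -0.13 ± 0.06 each and Psmc3ip at -0.46 ± 0.22, and the adjusted p was 0.27 for Psma7 and 0.49 to 0.50 for the others. The median over the 35 genes was -0.06, with 4 genes positive. With size scaling alone 8 genes of all tested were called and 0% of them were higher, against 20% of the 5 called with the median-of-ratios scaling, and 0 of the 35 genes were among those called. A smaller response in transgenic hearts was thus not shown for any single subunit.

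The fourth comparison set transgenic against WT hearts, both under Ang II. Of the 35 genes, 7 rose (20%) and 1 fell (2.86%), against 16.4% of all genes tested in each direction, and the median log2 fold change was 0.03. The lid held 5 of the 7 (Psmd7, Psmd8, Psmd11, Psmd13 and Psmd14), with Psma5 and Psmc6 the others. Psmd8 had a median of 22.0 (19.6 to 28.8) in WT Ang II and of 27.1 (24.0 to 30.8) in Tg Ang II, a log2 fold change of 0.26 ± 0.05 (adjusted p = 4.3e-05). The highest WT Ang II value was library 329, and all 13 transgenic libraries lay above the WT median.

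Psmd11 went from a median of 8.22 (7.72 to 9.65) to one of 9.83 (8.39 to 11.7), at 0.22 ± 0.04 (adjusted p = 8.6e-05), and Psma5 from a median of 17.5 (16.8 to 22.4) to one of 21.5 (16.9 to 24.2), at 0.22 ± 0.05 (adjusted p = 2.8e-04). The ranges overlapped for both, with 7 and 2 of the 13 transgenic libraries above the WT range. Of the 35 genes 0 were higher or lower without overlap, against 0.12% and 0.0946% of all genes tested. The WT range included library 329, whose Larp6 goes against its label. Larp6 itself overlapped, with 6 of the 13 transgenic libraries above the WT range. Overlap under Ang II thus cannot decide whether transgenic hearts differ from WT hearts.

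Psmd14 went from a median of 10.3 (9.51 to 13.3) to one of 12.3 (11.03 to 14.1), at 0.19 ± 0.05 (adjusted p = 0.0014), Psmd7 from 35.9 (33.6 to 43.3) to 40.1 (33.1 to 45.1), at 0.14 ± 0.04 (adjusted p = 0.011), and Psmc6 from 21.0 (18.5 to 25.4) to 22.5 (20.5 to 25.95), at 0.13 ± 0.04 (adjusted p = 0.016). In each of these 2 of 13 transgenic libraries lay above the WT range. Psmd13 rose by 0.10 ± 0.04 (adjusted p = 0.037), a call lost without any 1 of 12 of the 50 libraries. Without the FPKM filter Psmc6 and Psmd13 were not called by the edgeR test (adjusted p = 0.054 and 0.12). Psma7, which had risen with the transgene under saline, stood at -0.00 ± 0.04 here, with medians of 16.2 and 16.6. Psmc3, the gene with the highest scaled FPKM in WT saline, was lower at -0.10 ± 0.03 (adjusted p = 0.020), with medians of 51.1 (48.7 to 58.3) and 48.9 (44.4 to 52.6). With size scaling alone its value was -0.01 (adjusted p = 0.86), or -0.09 relative to the median of all genes, which that scaling moved by 0.08. Psmc3 was also not called with limma-trend, without the FPKM filter or with the block.

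With size scaling alone 17 genes were higher and 0 lower, where 3372 of the 11628 genes tested were higher and 927 lower. With limma-trend 16 were higher and 0 lower. There 4105 of the 11628 were called in either direction on log2(FPKM + 1), and these were not split by direction. Among all genes called 78.4% were higher with size scaling, against 49.9%. Under Ang II 6 of 9 macrophage, 6 of 9 resident fibroblast and 4 of 6 myofibroblast markers were higher in transgenic hearts and 8 of 8 endothelial and 6 of 8 cardiomyocyte markers lower, with 1 higher, and their part was not tested.

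The subcomplexes can be read library by library as the mean log2 level of their genes relative to WT saline. For the 8 lid genes this mean was 0.00 ± 0.06 in the 11 WT saline libraries (SD), 0.14 ± 0.09 in the 14 with Ang II, where library 329 was the highest at 0.36, 0.16 ± 0.07 in the 12 Tg libraries given saline and 0.26 ± 0.08 in the 13 given Ang II. For the 7 beta genes it was, in the same order, 0.00 ± 0.10, 0.05 ± 0.12, 0.02 ± 0.14 and 0.03 ± 0.09. The alpha ring stood at 0.00 ± 0.06, 0.10 ± 0.11, 0.15 ± 0.10 and 0.17 ± 0.08, and the ATPase ring at 0.00 ± 0.06, 0.11 ± 0.07, 0.05 ± 0.08 and 0.11 ± 0.07. The within-group SD of single genes on the log2 scale ran from 0.07 in Psmc2 and Psmd12 to 0.15 in Psmb3 and Psmb6 and 0.16 in Psmb5 and Psmd10, with 0.43 in Psmc3ip. Library 965 had the highest mean over the 34 genes, 0.32, and without it the Tg saline mean over those genes moved from 0.10 ± 0.08 to 0.08 ± 0.05.

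**Figure D4:**
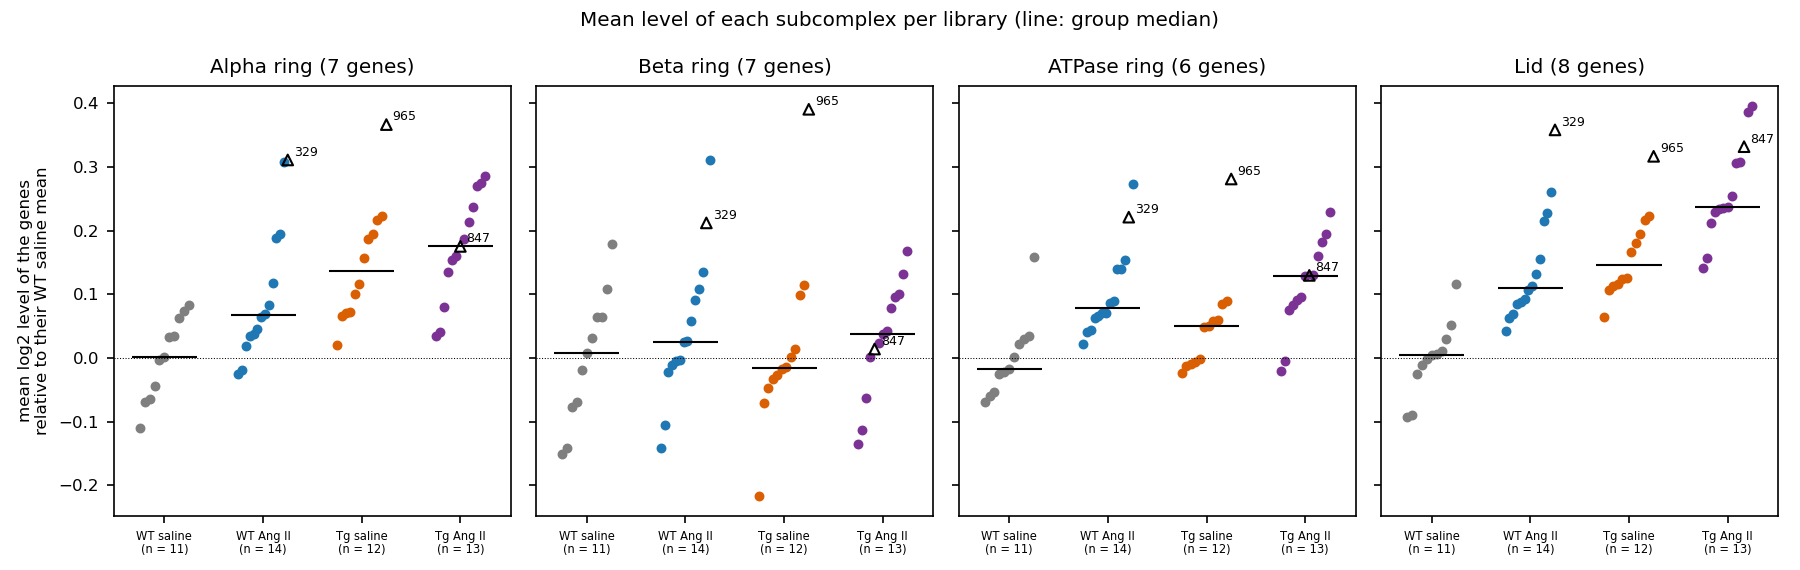
Mean log2 level of the genes of the alpha ring, beta ring, ATPase ring and lid in each library, relative to their WT saline mean, with a line at each group median and open triangles for libraries 329, 847 and 965. Averaged over the libraries of a group, the lid went from 0.00 in WT saline to 0.26 in Tg Ang II. The beta ring averages stayed within 0.05 of 0, while its single libraries ran from -0.22 to 0.39.

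Other genes of the pathway were taken from lists. Their counts stand beside all genes tested, of which 20.4% rose and 20.2% fell with the transgene under saline. With Ang II in WT 9.71% rose and 8.87% fell. Of the immunoproteasome subunits, which replace the catalytic ones in immune cells and under interferon, Psmb10 rose and Psmb8 and Psmb9 were not called. Psmb10 ran from 8.72 to 12.6 with a median of 11.01 in WT saline and from 13.4 to 23.0 with a median of 15.5 in Tg saline, a log2 fold change of 0.58 ± 0.08 (adjusted p = 2e-07). All 12 transgenic libraries lay above the WT ones, as they did for 2.65% of all genes tested. Ang II in WT raised it by 0.47 ± 0.08 (adjusted p = 3.5e-05), and in transgenic hearts under Ang II it was higher by 0.19 ± 0.07 (adjusted p = 0.048), a call lost without any 1 of 24 of the 50 libraries. Psmb8 and Psmb9 had log2 fold changes of 0.00 ± 0.11 and -0.07 ± 0.15 under saline.

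Of 5 activators and inhibitors, 3 fell with the transgene under saline and 1 rose, against 20.2% and 20.4% of all genes tested. Psme1, a subunit of the activator that opens the barrel without ATP, fell from a median of 27.0 (22.6 to 33.3) to one of 18.3 (16.9 to 23.4), at -0.49 ± 0.07 (adjusted p = 7.4e-07), and under Ang II it was at -0.60 ± 0.07 (adjusted p = 5.3e-09). Psme2, its partner, was at -0.02 ± 0.12. Psme3, a nuclear activator, and Psme4, also called PA200, fell by 0.16 and by 0.24 on the log2 scale (adjusted p = 0.0013 and 0.0029), and Psmf1, an inhibitor, rose by 0.12 ± 0.05 (adjusted p = 0.036), a call lost without any 1 of 8 libraries. Ang II in transgenic hearts raised Psme4 by 0.35 ± 0.06 (adjusted p = 2.6e-04), and in WT hearts its log2 fold change was 0.13 ± 0.06 (adjusted p = 0.14), while the interaction, at 0.22 ± 0.09, did not pass (adjusted p = 0.41). Under Ang II in WT 0 of the 5 were called.

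Of 5 tested chaperones of core assembly 0 rose and 1 fell under saline, Psmg1 at -0.21 ± 0.07 (adjusted p = 0.0087). Of 16 tested genes for bound subunits, deubiquitinases, ligases and shuttles, 2 rose and 2 fell, against 20.4% and 20.2% of all genes tested. The small lid subunit Sem1 rose by 0.52 ± 0.15 (adjusted p = 0.0036), but library 965 held 20.4 scaled FPKM and the next Tg saline library 7.43. Without library 965 the value was 0.30 ± 0.10 (adjusted p = 0.018). The ubiquitin shuttle Rad23b rose by 0.17 ± 0.04 (adjusted p = 0.0013), while Ecpas, an adaptor, and Uchl5, a deubiquitinase, were at -0.19 ± 0.05 and -0.15 ± 0.05 (adjusted p = 9.2e-04 and 0.015). The ubiquitin receptor Adrm1 and the deubiquitinase Usp14 were at 0.05 and 0.01 and did not pass. Under Ang II in WT 0 of the 5 and 0 of the 16 were called.

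Of 17 factors known to raise proteasome genes or to process NFE2L1, 6 rose and 0 fell under saline, with a median of 0.11. Among all genes tested 20.4% rose and 20.2% fell. Mafk, a small Maf partner of NFE2L1, rose by 0.92 ± 0.11 (adjusted p = 1.3e-08), the transcription factor Stat3 by 0.47 ± 0.08 (adjusted p = 5.8e-06), and Ufd1 and Vcp, which extract NFE2L1 from the membrane, by 0.26 ± 0.04 and 0.13 ± 0.04 (adjusted p = 4.5e-06 and 0.0065). Nfe2l1 itself was at 0.12 ± 0.05 under saline (adjusted p = 0.065) and rose by 0.18 ± 0.05 in transgenic hearts under Ang II (adjusted p = 0.0057). Ang II in WT called 3 of the 17 higher, Mafk at 0.42 ± 0.11, Ngly1, which trims NFE2L1, at 0.14 ± 0.04 and Nfe2l2 at 0.14 ± 0.04, and 1 lower, Nfyc at -0.18 ± 0.05. Nfe2l2 was not called without library 968 and Nfyc not without library 332.

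**Figure D5:**
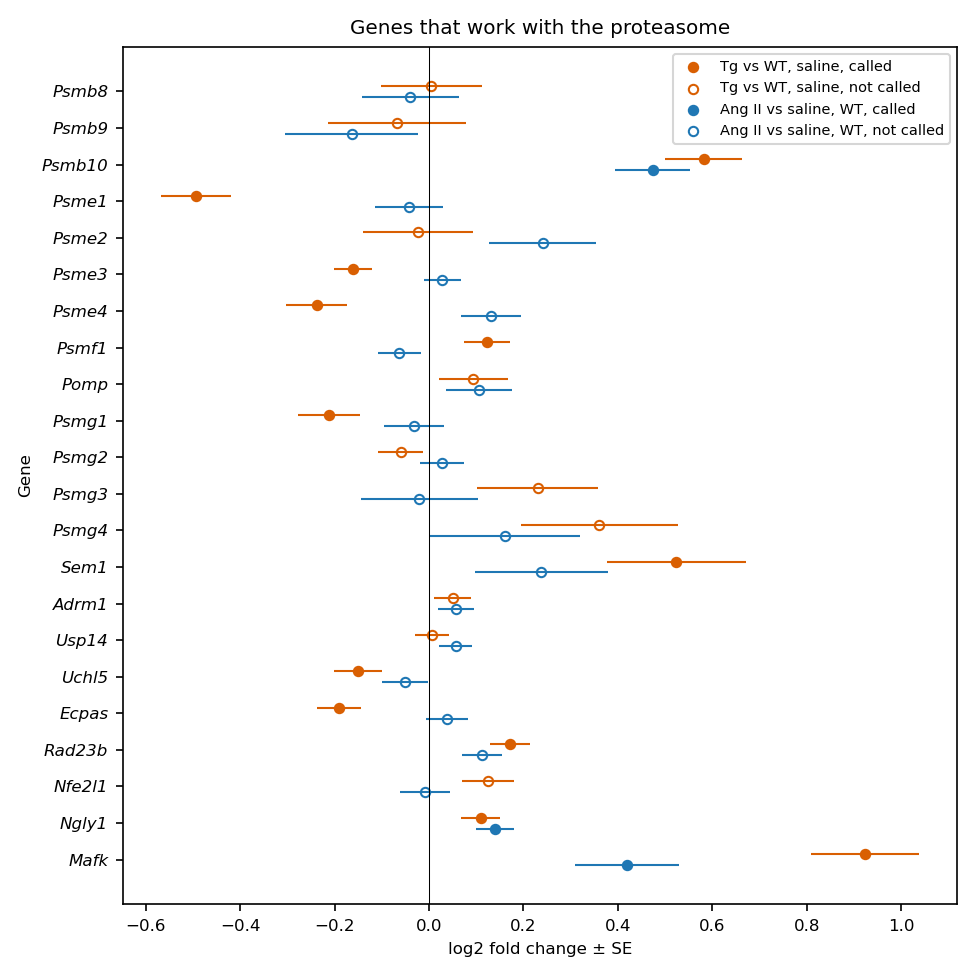
Log2 fold change ± SE of 22 genes that work with the proteasome, for the transgene under saline (orange) and for Ang II in WT hearts (blue), with filled points where the adjusted p was under 0.05. Psmb10 lies at 0.58 and 0.47, Psme1 at -0.49 and -0.04, and Mafk at 0.92 and 0.42.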

How the data were processed

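Poly(A) RNA of 50 left ventricles was sequenced as paired ends from libraries made by a dUTP method, per the labels' protocols. Per the submitters' processing notes the tools were cutadapt 1.9, FastQC, HISAT2 2.0.4 and StringTie 1.3.4d. The counting tool, its strand setting and the genome build are not given in the sources used here. The deposited table held a count, which the authors did not normalize, and an FPKM value, which the authors scaled to gene length and library size, for each gene and library. Each library number occurs once and was taken as a separate animal, and p-values measure the spread between these libraries. No pair of libraries in a group agreed within sampling noise, since even the closest pair gave a mean chi-square of 21.3 per gene.

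Counts of 11628 genes, those reaching FPKM 1 in 5 libraries or more, were scaled by median of ratios and fitted with the quasi-likelihood model of edgeR 4.0.16 in R 4.3.3, with 1 mean for each of the 8 genotype, treatment and sex groups and the sexes weighted equally. Adjusted p values are two-sided and Benjamini-Hochberg corrected over all genes tested, and a gene was called under 0.05. Intervals are 95% intervals from the SE. Alternatives were TMM scaling, size scaling alone, no FPKM filter, DESeq2 1.42.0, limma-trend (limma 3.58.1) on log2(FPKM + 1) and log2(FPKM + 0.1), sex left out, a block for 10 clusters of library numbers, leaving out libraries 329 and 847, and leaving out each of the 50 libraries. Reading libraries 329 and 965 singly, the lists without single libraries and the counts by role under the alternatives was chosen after seeing the data. The test was checked on simulated data.

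The 35 genes, the lists and the alternatives were chosen with earlier results of these data known. Values were given in full for the catalytic subunits and for up to 6 called genes with the largest change in each direction of each comparison, and of each list for Psmb8, Psmb9, Psmb10 and up to 4 genes with the smallest p. Psme2, Adrm1, Usp14 and Nfe2l1 were named in addition after their values were seen. Of the listed genes, Paaf1 and a second symbol of Ecpas were not found by name, and Uba6 was not tested. Positions were compared with GENCODE M21 (GRCm38): 35599 genes of the table were found there by identifier, 91.6% at identical positions, and 31 of the 35 genes were identical. On opposite strands 9 of the 35 share exon sequence with another gene, among them Psma5, Psmb7, Psmc3, Psmd3 and Psmd13, and 2 on the same strand, Psmb5 with Mir686 and Psmd1 with Gm21972, so their reads may be shared.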

Additional observations from a re-analysis of the deposited data

Results flagged for a closer look

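In 136 groups tested, formed by the 16 genes given in full and the mean over the subunits in the 8 groups by sex, 15 had 1 library far from the rest, with a gap to its nearest neighbour that was large for the group's whole range. Chance gives about 1 in 20 such groups.

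Of these, 7 belong to library 965, the Tg saline male with the lowest scaling factor, which was the highest of its group in each. Its scaled FPKM was 45.6 for Psmb2, 38.2 for Psmb6, 57.0 for Psmc1, 55.4 for Psmc3, 28.4 for Psmd4 and 32.5 for Psmd8, and its mean over the 34 genes was 0.32 on the log2 scale. The other 8 were spread over several libraries. Library 779 (WT Ang II female) was high for Psma5 at 17.9 and for Psmc1 at 44.9. Library 488 (WT saline male) was high for Psmb7 at 22.3 and for Psmc6 at 23.2. For Psma7 library 720 (WT Ang II female) was low at 14.5 and library 239 (WT saline female) high at 15.7. For Psmb6 library 716 (Tg saline female) was low at 20.1 and library 326 (Tg Ang II male) low at 22.9.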

How the results depend on the processing

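The calls of the 35 genes were compared under the 9 alternatives and without each of the 50 libraries. TMM scaling and DESeq2 kept every count of called genes within 1.5 times and every named gene on its side of the threshold. With size scaling alone the genes higher and lower with the transgene were 29 and 0 under saline and 17 and 0 under Ang II, 23 were higher with Ang II in WT and 0 lower in females. With limma-trend, for both pseudocounts, these were 25 and 0, 16 and 0, 22 and 0, and 3 were higher with Ang II in Tg. Without the FPKM filter 0 were higher with Ang II in Tg and 0 lower with the transgene under Ang II. With the block for library-number clusters 2 were higher with Ang II in Tg, Psmd6 and Psmd14, and Psmd11 was not. Limma-trend used the deposited FPKM without median-of-ratios scaling. On log2(FPKM + 1) its median over all genes tested was 0.08 for the transgene under saline, 0.05 for Ang II in WT and 0.06 for the transgene under Ang II. On log2(FPKM + 0.1) it was 0.11, 0.06 and 0.08. The part of these medians in the counts, and the cause of the other shifts, was not tested. The sign turned for Psmb2 under saline with size scaling alone (0.0057, which is -0.13 relative to the shifted median of all genes), and under the block for Psmb5 (-0.0028), Psmb6 (-0.0097) and Psmb7 (-0.0159). Without single libraries the log2 fold change under saline ran from -0.0336 to 0.0520 for Psmb6, negative in 3 cases, and from -0.0139 to 0.0369 for Psmb7, negative in 1.

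Without single libraries the genes higher under the transgene were 12 to 16 under saline (lower 1 to 1) and 6 to 9 under Ang II (lower 1 to 2). With Ang II they were 10 to 16 in WT (lower 0 to 0) and 0 to 4 in Tg (lower 0 to 1), the sexes gave 0 to 0 higher and 3 to 5 lower, and both interactions 0 to 0. Moves by over 1.5 times came in Tg given Ang II without library 237, 715, 783 or 847 (0 higher), 158 (2 higher), 965 (4 higher) or 530 (1 lower). They also came for the sexes without 296 or 528 (5 lower), and for the transgene under Ang II without 157, 165, 296 or 530 (2 lower). No paired analysis was possible because each library number in the labels occurs once. The model without sex gives no value for the sex comparisons. With 11 to 14 libraries a group the SE under saline was 0.03 to 0.07 for the 34 genes other than Psmc3ip, and changes of that size were not detectable. In the simulated data 4% of 1.1-fold, 36% of 1.2-fold and 96% of 1.5-fold changes were called. The spread there was set to 1 value for all genes and not taken from these 34. It was larger than their within-group SD, which ran from 0.07 to 0.16 on the log2 scale. The simulated shares are thus likely too low for these genes.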

Other observations

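Other protein quality genes were read in the same fit, beside all genes tested. With the transgene under saline 20.4% of those rose and 20.2% fell, and with Ang II in WT 9.71% rose and 8.87% fell. The CCT chaperonin, which folds actin and tubulin, had 5 of 8 genes higher with the transgene under saline and 0 lower: Cct8 at 0.18 ± 0.03, Cct3 at 0.17 ± 0.04, Cct5 and Cct6a at 0.16 ± 0.03 each and Cct2 at 0.09 ± 0.04, the last a call lost without any 1 of 29 libraries. Under Ang II in WT 1 of the 8 rose, Cct4 at 0.14 ± 0.04. The COP9 signalosome, a complex built like the lid, had 2 of 10 genes higher and 1 lower with the transgene under saline, Cops9 at 0.59 ± 0.16, Cops2 at 0.15 ± 0.04 and Cops6 at -0.11 ± 0.04, and 1 higher with Ang II in WT, Cops2 at 0.16 ± 0.04. Without library 965 Cops9 was at 0.30 ± 0.10 (adjusted p = 0.013), and Cops6 was not called without any 1 of 16 libraries.

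Of 9 genes for p97 and its cofactors, which unfold ubiquitinated proteins before the proteasome, 4 rose and 2 fell with the transgene under saline. With Ang II in WT 3 rose. The shares of all genes tested were 20.4% and 20.2% under saline and 9.71% higher with Ang II in WT. Ubxn4, a membrane anchor of p97, rose in both, at 0.23 ± 0.04 and 0.25 ± 0.04. Faf1, another cofactor, was at -0.12 ± 0.04 with the transgene and at 0.15 ± 0.04 with Ang II in WT. Of 5 tested genes for ubiquitin and its activation, 1 rose with the transgene under saline, the stress-inducible ubiquitin gene Ubb at 0.17 ± 0.06, and 0 were called with Ang II in WT. All adjusted p values were under the threshold for the genes called, by the quasi-likelihood test of edgeR.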
